A study of Mus musculus with 4 samples.

Results

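The genes of the circadian clock were followed in single-nucleus RNA counts from mouse brain. The 10 genes were Per1, Per2, Per3, Cry1, Cry2, Clock, Arntl (which encodes BMAL1), Nr1d1, Nr1d2 and Dbp, chosen by symbol, and each was found in 1 of the 31053 gene rows of every matrix. They were measured in 2-month-old female C57/BL6 mice that were either wild type (WT) or heterozygous for Csf1r, the receptor for colony stimulating factor 1 (Csf1r+/-, HET). There were 2 libraries of each genotype, named WT1, WT2, HET1 and HET2, while the third mouse of each group was not analysed here. The labels give no treatment. Csf1r+/- mice carry 1 intact allele in every cell type, so the contrast compares whole animals and not a deletion in microglia alone. Nuclei came from perfused brains by a detergent-free method with removal of myelin debris, and the labels and methods give no time of day of collection.

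The circadian clock is a transcriptional feedback loop present in most cells. CLOCK and BMAL1 bind E-box sequences and activate the Per and Cry genes, whose proteins return to the nucleus and repress them. The same activators drive Nr1d1 and Nr1d2, which encode the REV-ERB repressors of Arntl, and Dbp, which encodes an activator that binds D-box sequences. Transcripts of Arntl and of the E-box and D-box genes therefore peak at different times of day, and in addition Per1 and Per2 respond acutely to neuronal activity and glucocorticoids. In the mouse forebrain, clocks outside the hypothalamic pacemaker follow it through nervous and hormonal signals.

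Promoter sequences of 3 of the genes are given because they hold elements of this loop and because these genes recur in the comparisons below. They are from RefSeq (GRCm38.p6), 5′ to 3′ on the strand of the gene, ending at a RefSeq transcript start, with exonic bases trimmed. Per1 lies on the plus strand at chr11:69098699-69098947, inside the annotated span of the gene and upstream of the first of its RefSeq starts, Cry1 on the minus strand at chr10:85185065-85185304, and Per3 on the minus strand at chr4:151044666-151044915. Capitals mark the E-box CACGTG in Per1 and Cry1, the E′-box CACGTT in Cry1 (read here on the other strand as AACGTG), and both copies of the D-box TTATGTAA in Per3.
Per1: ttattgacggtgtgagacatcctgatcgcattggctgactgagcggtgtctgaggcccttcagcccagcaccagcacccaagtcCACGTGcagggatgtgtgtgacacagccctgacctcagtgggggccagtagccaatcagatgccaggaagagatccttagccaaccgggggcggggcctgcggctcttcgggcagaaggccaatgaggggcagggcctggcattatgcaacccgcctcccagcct
Cry1: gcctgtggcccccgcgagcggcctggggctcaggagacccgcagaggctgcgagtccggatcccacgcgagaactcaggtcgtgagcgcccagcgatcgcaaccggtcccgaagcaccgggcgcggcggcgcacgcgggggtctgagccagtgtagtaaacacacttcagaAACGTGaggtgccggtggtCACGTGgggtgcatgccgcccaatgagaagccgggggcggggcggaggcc
Per3: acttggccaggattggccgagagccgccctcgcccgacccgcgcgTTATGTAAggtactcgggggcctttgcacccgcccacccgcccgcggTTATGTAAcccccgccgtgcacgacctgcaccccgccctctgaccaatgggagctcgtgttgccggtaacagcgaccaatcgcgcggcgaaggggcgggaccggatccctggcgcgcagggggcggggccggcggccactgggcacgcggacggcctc

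The E-box of Per1 began 166 bases before the start, that of Cry1 60 bases before it, and the D-boxes of Per3 205 and 158 bases before it. Each motif was searched on both strands in the 250 bases before the start. RefSeq entries were found for 9 of the 10 genes, all but Per2. The E-box was in 2 of these 9 genes and in 6.86% of 27025 genes. The E′-box was in 3 of 9 (Cry1, Cry2 and Nr1d1) and in 4.5% of all genes, and the D-box in 1 of 9 and in 0.977%. AGGTCA, the core of the element bound by REV-ERB and ROR receptors, was in Per1, Clock and Nr1d2 and in 15.8% of all genes. The cyclic AMP element TGACGTCA was in none of the 9 windows and in 1.77% of all genes. These matches describe the letters of the windows only.

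In GRCm38 (mm10), Per1 spans chromosome 11 bases 69095217 to 69109960 and Per2 chromosome 1 bases 91415982 to 91459324. Per3 spans chromosome 4 bases 151003652 to 151044665, where it overlaps Camta1 on the same strand, so reads in the shared stretch may be ambiguous between them. Cry1 is on chromosome 10 (85131700 to 85185064) and Cry2 on chromosome 2 (92403646 to 92434043). Clock is on chromosome 5 (76209868 to 76304792), where it overlaps the models Ube2n-ps1 and Gm43658 on its own strand. Arntl is on chromosome 7 (113207465 to 113314126) and Dbp on the same chromosome (45705088 to 45710203). Nr1d1 is on chromosome 11 (98767932 to 98775333), opposite Thra, and Nr1d2 on chromosome 14 (18204054 to 18239127).

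The filters kept 52132 nuclei, 16114 and 15247 in WT1 and WT2 and 9589 and 11182 in HET1 and HET2. Median UMIs (unique molecular identifiers, 1 per captured transcript) per nucleus were 5490 and 4636 in WT and 7454 and 6656 in HET, so both HET libraries were deeper. Median mitochondrial shares were 0.171% and 0.656% in WT and 0.268% and 0.144% in HET. Library pairs shared 35 to 75 cell barcodes and no library duplicated another. Clusters were named from marker genes as excitatory (26502 nuclei), inhibitory (7693) and other neurons (10267), oligodendrocytes (2268), microglia (652) and endothelial cells (457). Astrocytes (60 nuclei) and oligodendrocyte precursors (94) were too few for the contrasts, and 4139 nuclei stayed unnamed. In microglia Csf1r was at 886 and 919 CPM (counts scaled to a common library total) in WT and 605 and 593 in HET, a log2 difference of -0.59 ± 0.20 (SE; edgeR adjusted p = 0.349).

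Levels in CPM are a gene's share of all UMIs of the class in a library, given as mean ± SD over the 4 libraries. Values of different genes are not compared, since no length correction was made. Excitatory neurons held more Arntl, Per3, Nr1d1 and Cry2 per UMI than inhibitory neurons in each library, whereas Cry1 ran the other way. Arntl was at 99.3 ± 7.4 CPM in excitatory and 59.0 ± 4.5 in inhibitory neurons, 1.69 times higher. Per3 was at 50.1 ± 6.0 CPM against 27.3 ± 3.8, a ratio of 1.83, and Nr1d1 at 7.13 ± 1.8 CPM against 3.74 ± 0.94, a ratio of 1.91. Their ranges over the 4 libraries did not overlap between the classes. Cry2 was 1.24 times and Per2 1.29 times higher in excitatory neurons, in 4 of 4 libraries each. Cry1 was lower, at 0.75 times the inhibitory level, again in 4 of 4 libraries. Clock, Nr1d2 and Dbp differed less between these classes, with ratios of 0.96, 1.01 and 1.08. Per1 gave 1.19, with 3 of 4 libraries higher in excitatory neurons.

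**Figure D1:**
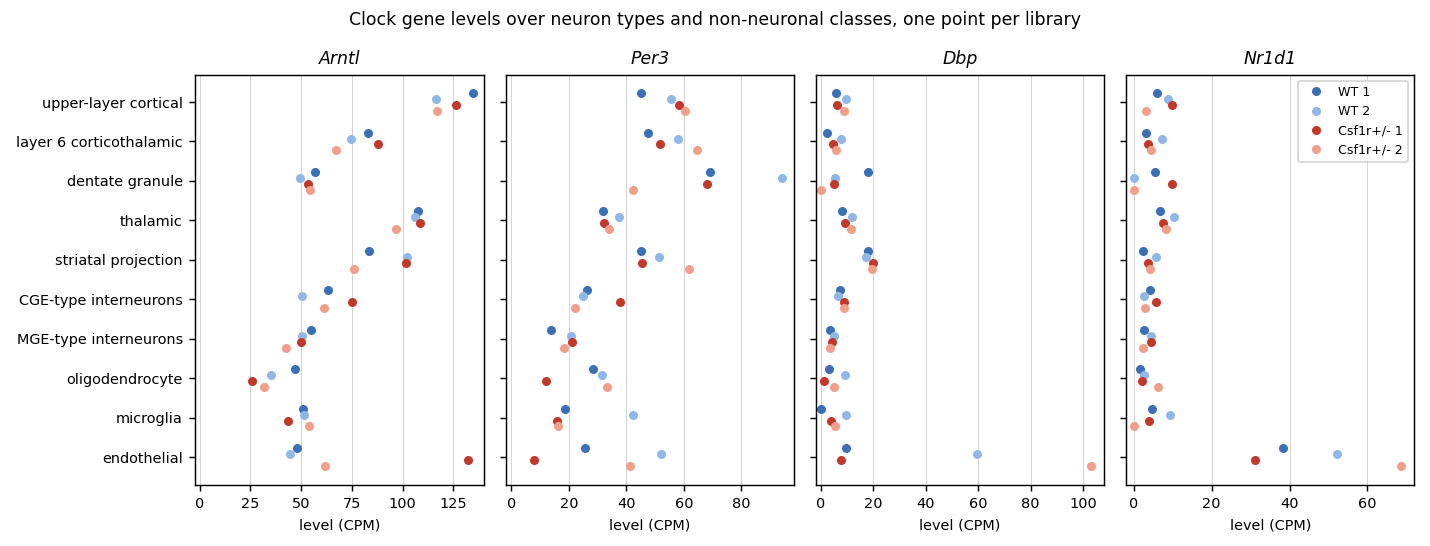
Levels of Arntl, Per3, Dbp and Nr1d1 (CPM, linear horizontal axes) in 7 neuron types and 3 non-neuronal classes (rows), 1 point per library, colored by library; CGE and MGE stand for caudal and medial ganglionic eminence. Arntl has its highest mean in upper-layer cortical neurons (123 CPM), and Dbp, at 18.6 CPM, has a higher mean in striatal projection neurons than in every other neuron type.

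Within the neurons, 7 types could be named from markers. Arntl differed between the 2 cortical types named: it was at 123 ± 8.6 CPM in upper-layer cortical neurons and at 78.2 ± 9.0 in layer 6 corticothalamic neurons, which had 0.63 times the upper-layer level and were lower in all 4 libraries. Dentate granule neurons had 53.6 ± 3.0 CPM of Arntl and interneurons of the medial ganglionic eminence type 49.6 ± 5.1, 2 neighbouring values whose ranges overlapped.

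Dbp stood out in striatal projection neurons. Its level there was 18.0 and 17.1 CPM in WT1 and WT2 and 19.96 and 19.3 in HET1 and HET2, from 24, 36, 22 and 19 UMIs. The next neuron type, thalamic neurons, had 7.99, 11.9, 9.23 and 11.4 CPM in the same order. These ranges did not overlap, while dentate granule neurons reached 17.8 CPM in WT1 from 10 UMIs and 0 to 5.22 CPM in the other libraries. The striatal level was 2.54 times the excitatory one, higher in each of the 4 libraries. Nr1d1, which the same activators drive, was at 0.53 times the excitatory level in striatal projection neurons, lower in all 4 libraries. Its mean there, 3.91 CPM, was close to the 3.74 CPM of inhibitory neurons, the class that holds this type. The striatal Nr1d1 level rests on only 23 UMIs, with 3 to 12 in a library. Nr1d2 was at 1.22 times the excitatory level, higher in 4 of 4, and Clock at 1.08 times.

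Cry1 was at 22.1 ± 3.5 CPM in thalamic and 20.6 ± 4.5 in striatal projection neurons, whose ranges overlapped. These were 1.78 and 1.65 times the excitatory level, higher in 4 of 4 libraries. Per2 went the other way in thalamic neurons, at 0.51 times the excitatory level in all 4. Interneurons of the medial ganglionic eminence type were lower than excitatory neurons in all 4 libraries for Per1 (0.63 times), Per2 (0.57), Per3 (0.37), Cry2 (0.75), Arntl (0.50), Nr1d1 (0.47) and Dbp (0.54). Their Cry1 level was 1.16 times the excitatory one and was higher in all 4.

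Outside the neurons the UMIs were few, and free neuronal RNA, estimated from neuronal markers, made up 6.91% to 16.1% of oligodendrocyte, 11.3% to 24.7% of microglial and 8.95% to 23.9% of endothelial UMIs. In each of these classes the estimate was higher in both WT than in both HET libraries. Clock was at 184 ± 19 CPM in oligodendrocytes, 1.26 times the excitatory level and higher in all 4 libraries. Arntl was at 35.0 ± 9.0 CPM there, 0.35 times the excitatory level, and Per2 at 3.55 ± 2.7 CPM, 0.15 times. Both were lower in all 4 libraries. Per2 came from only 1, 17, 2 and 2 UMIs, and the part of free neuronal RNA in them was not tested. Nr1d1 was at 47.5 ± 17 CPM in endothelial cells, 6.52 times the excitatory level, from 12, 7, 4 and 10 UMIs, and the ranges did not overlap. In microglia Per2 had 1, 0, 0 and 1 UMIs and Dbp 0, 2, 1 and 1, so that neither level could be resolved at this depth.

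The next question was whether the 4 brains differed among themselves in clock gene levels, since the time of collection is not given and each library is 1 mouse. In excitatory neurons, Per1 was at 16.3 and 19.7 CPM in WT1 and WT2 and at 36.9 and 11.4 in HET1 and HET2. The highest and the lowest library belonged to the same genotype. Per2 was at 11.8, 24.5, 31.7 and 16.3 CPM in the same order, with WT1 lowest and HET1 highest. Cry1 was at 9.57, 11.1, 19.3 and 11.2 CPM, and HET1 again stood above the other 3. Dbp was at 5.03, 9.29, 7.23 and 8.44 CPM, with WT1 lowest and WT2 highest. Clock, at 142, 147, 154 and 139 CPM, and Arntl, at 103, 93.2, 108 and 93.1 CPM, varied least in proportion.

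**Figure D2:**
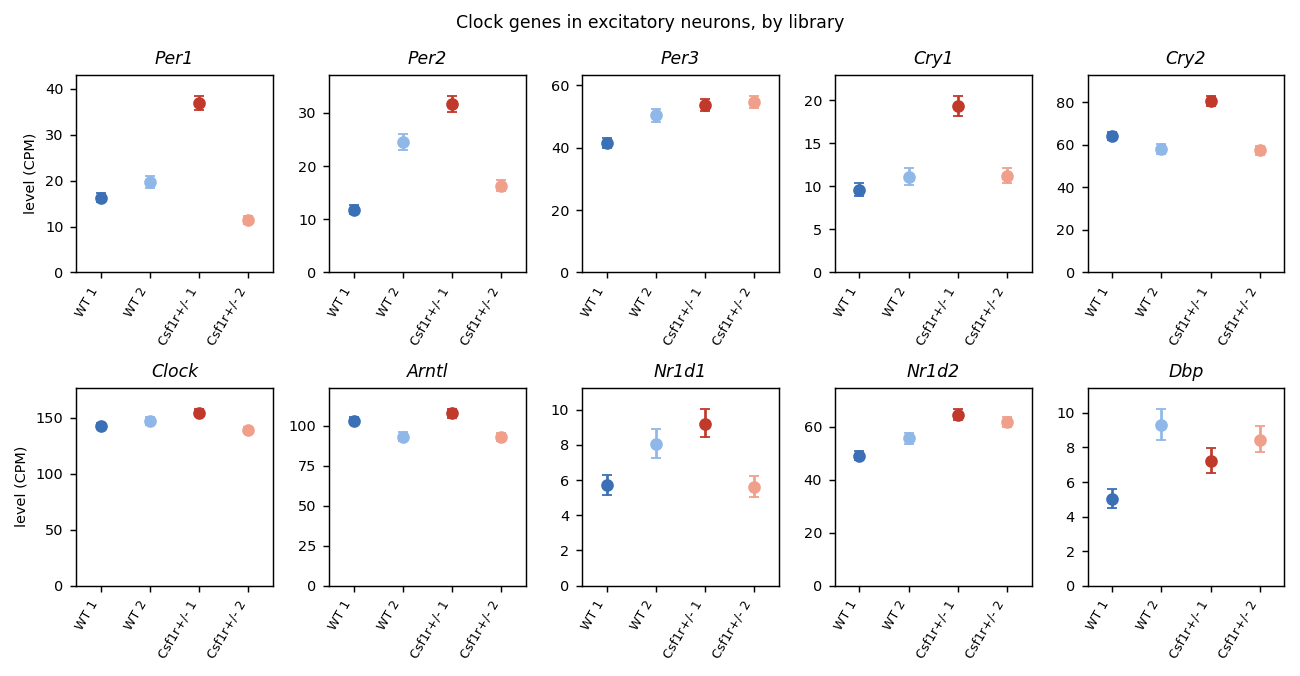
Levels of the 10 clock genes in excitatory neurons by library, 1 panel per gene, in CPM on linear axes from 0, with exact 95% counting intervals as error bars. Per1 in HET1 (36.9 CPM) lies far above HET2 (11.4 CPM), while Clock stays between 139 and 154 CPM.

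Ratios between libraries carry exact 95% intervals, which cover counting error only. In excitatory neurons Per1 was 3.23 times higher in HET1 than in HET2 (2.96 to 3.53) and Per2 was 1.94 times higher (1.79 to 2.10). Between the WT libraries, Per2 was 2.08 times higher in WT2 (1.89 to 2.28) and Dbp 1.85 times (1.60 to 2.14), while Per1 was 1.21 times higher (1.10 to 1.32). Libraries of 1 genotype thus differed by more than counting error. Dbp and Arntl moved apart: Arntl was at 0.90 times in WT2 over WT1 (0.87 to 0.94) and at 1.16 times in HET1 over HET2 (1.116 to 1.20), whereas Dbp was at 0.86 times in HET1 over HET2 (0.75 to 0.98).

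The log2 distance between the highest and the lowest library was set against that of all 13022 genes with at least 400 UMIs in excitatory neurons, whose median was 0.33 and 90th percentile 0.84. Per1 reached 1.74 (percentile 99.2), Per2 1.46 (98.4) and Cry1 1.04 (94.9). Nr1d1 and Dbp reached 0.76 each, and Cry2 0.63. Nr1d2 (0.43), Per3 (0.40), Arntl (0.37) and Clock (0.23) lay closer to the median gene. This is a description of 4 libraries and carries no test.

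The library order recurred across neuron types for some genes. Per1 was higher in HET1 than in HET2 in 7 of 7 neuron types, with 4 of the 7 intervals wholly above 1, and Per2 was higher in WT2 than in WT1 in 7 of 7, with 5 above 1. Per2 was higher in HET1 than in HET2 in 6 of 7, with 2 above 1. Per3 was higher in HET1 than in HET2 in 3 of 7, and Cry1 was higher in WT2 than in WT1 in 3 of 7. Over the 70 values of 10 genes in 7 types, HET1 was the highest library in 35, WT1 the lowest in 28 and HET2 the lowest in 22. Types of 1 library share the animal, its depth and its free RNA, and so do not count as separate tests. The genes that neuronal activity induces did not share this order in full. Fos was at 21.8, 4.91, 9.09 and 4.80 CPM in excitatory neurons, highest in WT1, where Per2 was lowest. Bhlhe40, a repressor of E-box genes, was at 15.2, 17.1, 33.2 and 12.4 CPM, with HET1 highest and HET2 lowest as for Per1. Nr4a1, another activity-induced gene, was at 55.7, 43.8, 82.9 and 42.3 CPM, also with HET1 highest and HET2 lowest. Fkbp5, a glucocorticoid-induced gene, was at 16.4, 25.5, 26.5 and 17.1 CPM, with WT1 lowest. The part of activity or glucocorticoids in the Per levels was not tested.

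As a single value per library, a clock index was taken as the mean log2 CPM of Dbp, Nr1d1, Nr1d2, Per1, Per2 and Per3 minus that of Arntl and Clock. It orders libraries by the level of these E-box and D-box genes against that of Arntl and Clock, and gives no time of day. In excitatory neurons it was -3.02 and -2.44 in WT1 and WT2 and -2.34 and -2.69 in HET1 and HET2. The mean was higher by 0.21 in HET, with SDs of 0.41 in WT and 0.25 in HET, so that the genotypes overlapped. In inhibitory neurons it was -2.97, -2.54, -2.49 and -2.71. WT1 was lowest in both classes, and in excitatory neurons it stayed lowest when each of the 8 genes was left out in turn. HET1 was highest except when Per1 was left out or when Cry1 was added to Arntl and Clock. In both of these WT2 was highest, and with Cry1 added the mean was higher by 0.05 in HET.

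**Figure D3:**
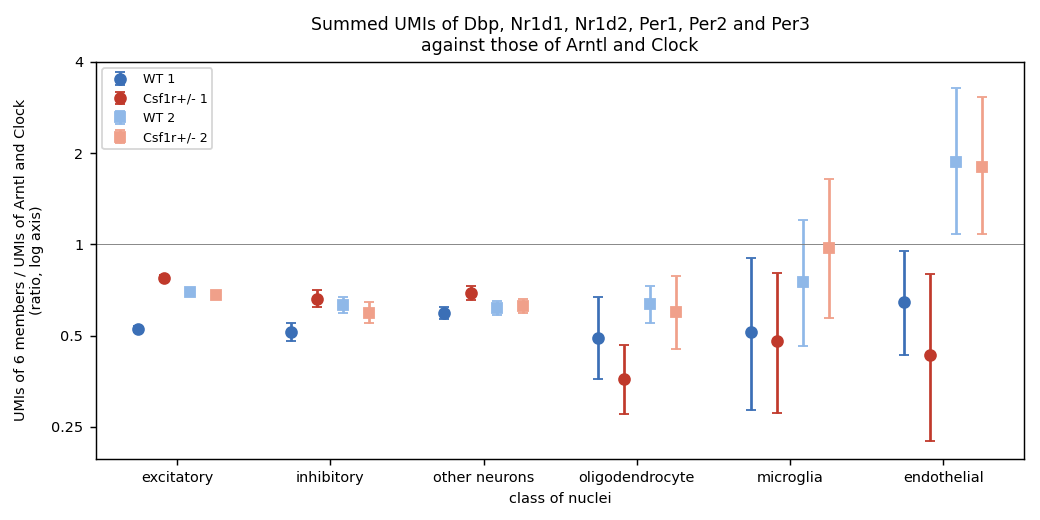
Ratio of the summed UMIs of 6 clock genes (Dbp, Nr1d1, Nr1d2, Per1, Per2, Per3) to those of Arntl and Clock, on a log axis, by class (horizontal axis) and library, with exact 95% counting intervals as error bars. Endothelial cells of WT2 (1.86) and HET2 (1.80) lie above those of WT1 (0.64) and HET1 (0.43).

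Glial and endothelial nuclei gave another order than excitatory neurons. The same genes were compared there as a ratio of summed UMIs, which needs no logarithm of small counts. Unlike the index, this ratio weights each gene by its UMIs. In endothelial cells it was 0.64 in WT1 (45 over 70 UMIs, 95% interval 0.43 to 0.95) and 1.86 in WT2 (41 over 22, 1.08 to 3.29). It was 0.43 in HET1 (16 over 37, 0.22 to 0.80) and 1.80 in HET2 (45 over 25, 1.08 to 3.06). WT2 and HET2 were thus above WT1 and HET1, with intervals that did not overlap between them. In oligodendrocytes the ratios were 0.49 and 0.63 in WT1 and WT2 and 0.36 and 0.60 in HET1 and HET2. In microglia they were 0.51, 0.75, 0.48 and 0.97 with wide intervals, and 120 of the 159 WT2 nuclei lay in a cluster nearly absent from the other libraries. WT2 and HET2 thus had the higher ratio within their genotype in all 3 classes, whereas in excitatory neurons, at 0.53, 0.70, 0.78 and 0.68, HET1 was highest. This order was not particular to cells outside the neurons. Striatal projection neurons (0.69, 0.82, 0.72 and 0.89) and thalamic neurons (0.47, 0.62, 0.56 and 0.59) shared it, and the other named neuron types did not. After subtraction of free neuronal RNA the endothelial ratios were 0.68, 2.64, 0.41 and 1.95.

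Among the endothelial values, Dbp was spread widely between libraries. It had 3 and 8 UMIs in WT1 and WT2 and 1 and 15 in HET1 and HET2, or 9.56, 59.6, 7.78 and 103 CPM. WT2 and HET2 were the high libraries, as they were for Dbp in excitatory neurons. The inhibitory neurons differed: Dbp there was at 5.92, 7.30, 7.64 and 6.27 CPM, with HET1 highest. HET1 was also highest for Dbp in striatal projection neurons, where WT2 was lowest, and in interneurons of the caudal ganglionic eminence type. As in excitatory neurons, WT2 was highest and WT1 lowest in the class of other neurons and in thalamic, upper-layer cortical and layer 6 corticothalamic neurons. The same held for interneurons of the medial ganglionic eminence type, while WT1 was highest in dentate granule neurons. Arntl in endothelial cells had 15, 6, 17 and 9 UMIs, or 47.8, 44.7, 132 and 61.8 CPM, with HET1 highest. Nr1d1 was at 38.2, 52.1, 31.1 and 68.7 CPM, with WT2 and HET2 above the other libraries. These values come from only 12, 7, 4 and 10 UMIs, and the order was not tested. The labels do not say that replicate numbers mark a shared day, and whether they do cannot be told from these files.

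The genotype contrast asked whether clock genes differed between Csf1r+/- and WT brains. No clock gene passed the study's threshold of an unadjusted p under 0.01 in any of the 6 fits (all nuclei, excitatory, inhibitory, oligodendrocyte, microglia and endothelial) by edgeR's quasi-likelihood test or by DESeq2. The study itself used edgeR's likelihood-ratio test on 3 mice per genotype within clusters. By that test on the 4 libraries and classes used here, no clock gene passed either. In excitatory neurons all 10 had a positive log2 difference (HET minus WT), with a median of 0.28 against 0.01 over the 21337 genes tested, of which 51.4% were positive. At p under 0.05 the count in excitatory neurons was 3 of 10 (2 by DESeq2), against 3.27% of all genes, and at p under 0.01 it was 0 of 10, against 0.548%. The edgeR count at p under 0.05 was 1 of 10 with the replicate block and 1 of 8 with the study's 10% filter. With scaling by library totals alone it was 0 of 10.

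The 3 genes with p under 0.05 in excitatory neurons were Per3, Nr1d2 and Cry1. Per3 was at 41.5 and 50.4 CPM in WT and 53.6 and 54.8 in HET, a log2 difference of 0.32 ± 0.13 (SE). Nr1d2 was at 48.9 and 55.5 CPM in WT and 64.5 and 61.8 in HET, a difference of 0.35 ± 0.12. Cry1 gave 0.65 ± 0.27, and its HET2 level of 11.2 CPM was close to the 11.1 CPM of WT2. Both HET values lay above both WT values for these 3 genes, and 27.2% of all genes had groups that did not overlap. The excitatory class pools 16 clusters whose shares differed between libraries, and the part of this mix was not tested. A single cluster held 404, 497, 546 and 606 of the 8229, 6542, 5035 and 6696 excitatory nuclei of WT1, WT2, HET1 and HET2. Within its named types, WT2 was the highest library for Nr1d2 in layer 6 corticothalamic and dentate granule neurons. It was also highest for Per3 in dentate granule neurons, and a HET library was highest in the other pairs of gene and type. The edgeR adjusted p was 0.9999 for each of the 10 genes. Per1 and Per2 gave larger differences with larger errors, 0.51 ± 0.46 and 0.51 ± 0.38, and their groups overlapped. Cry2 (0.25), Dbp (0.22), Nr1d1 (0.19), Arntl (0.10) and Clock (0.09) also overlapped between genotypes.

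**Figure D4:**
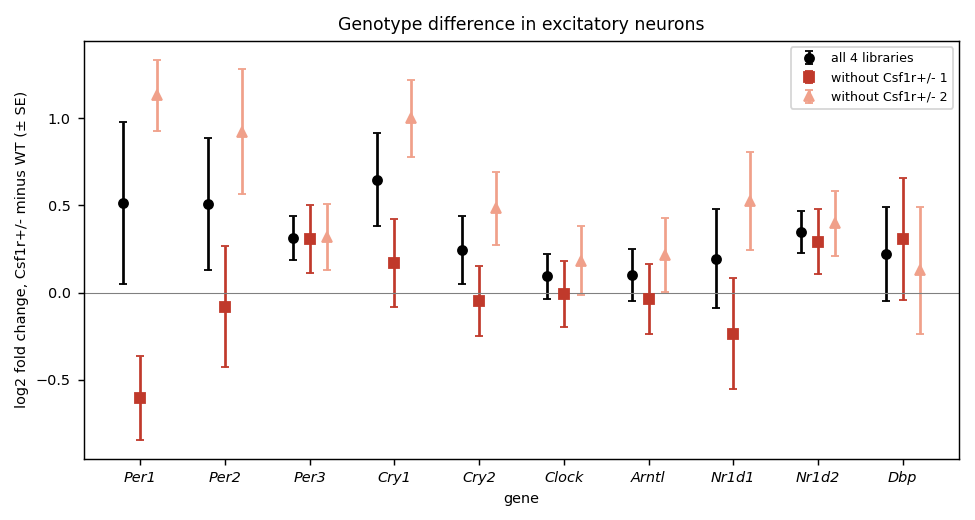
Log2 differences (HET minus WT) of the 10 clock genes in excitatory neurons with standard errors as error bars, from edgeR, for all 4 libraries (black) and with HET1 or HET2 left out (red squares and light triangles). All 10 are positive with 4 libraries, and 4 of 10 are positive without HET1.

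For 6 of the 10 genes the positive direction in excitatory neurons depended on HET1. A fit with 1 library left out has 1 library in a group, so its error holds no spread between animals of that group. Without HET1 the median was -0.02, and Per1 was at -0.60 ± 0.24. The 4 genes still positive were Per3 (0.31 ± 0.19), Nr1d2 (0.29 ± 0.19), Dbp (0.31 ± 0.35) and Cry1 (0.17 ± 0.25), none with p under 0.05. Without HET2, all 10 were positive with a median of 0.44, and Per1 was at 1.13 ± 0.20 and Cry1 at 1.0 ± 0.22. Per2 was at 1.02 ± 0.30 without WT2. Without WT1, 9 of 10 were positive with a median of 0.24. The HET libraries were also deeper, and that part was not tested. Under a minimum of 1000 UMIs per nucleus all 10 stayed positive with a median of 0.28. That minimum does not equalise depth, since the median excitatory nucleus held 5776.5 UMIs in WT2, the lowest library, and 9270 in HET1, the highest.

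Over all nuclei, 10 of 10 were positive with a median of 0.25. Per3 (0.31 ± 0.11) and Nr1d2 (0.28 ± 0.11) had p under 0.05, against 2.59% of all genes, with an edgeR adjusted p of 0.9998 each. By DESeq2 the count was 1 of 10, and by edgeR with scaling by library totals alone it was 0 of 10. At p under 0.01 the background was 0.252%. The groups of these 2 genes did not overlap, as for 27.7% of all genes. The mix of cell types in a library also enters these totals, and its part was not tested. Without HET2, Per1 and Cry1 were at 0.97 ± 0.21 and 0.76 ± 0.22 over all nuclei, and without HET1 they were at -0.52 ± 0.23 and 0.08 ± 0.23. In inhibitory neurons 9 of 10 were positive with a median of 0.19. There only Cry1, at 13.2, 15.7, 20.8 and 17.1 CPM, had p under 0.05 (0.43 ± 0.18), against 2.89% of all genes, and 0.527% had p under 0.01. Groups did not overlap for Cry1, Clock and Nr1d2, 3 of 10, against 27.1% of all genes. By DESeq2 none had p under 0.05 there.

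Oligodendrocytes did not share the positive direction: 3 of 10 were positive, with a median of -0.28 against -0.01 over all genes, and none had p under 0.05, where 8.17% of genes did and 3.26% had p under 0.01. Clock was at 158 and 184 CPM in WT and 201 and 193 in HET (0.28 ± 0.20, edgeR adjusted p = 0.813). Groups did not overlap for Clock, which was higher in HET, and for Cry1 and Arntl, which were lower, against 34.6% of all genes. Dbp, with 2, 21, 1 and 3 UMIs, gave -1.43 ± 0.85 (edgeR adjusted p = 0.745). Per1 was split within each genotype, at 4.73 and 22.9 CPM in WT and 24.1 and 4.74 in HET, from 3, 52, 24 and 3 UMIs. Its ratio of HET1 over HET2 was 5.08 (1.54 to 26.4), the same direction as in excitatory neurons, and that of WT2 over WT1 was 4.84.

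In microglia, the cells that express Csf1r, 6 of the 10 genes had at least 10 UMIs and could be tested, and none had p under 0.05 against 8.75% of all genes (2.99% under 0.01). Arntl had 11, 11, 11 and 10 UMIs (-0.09 ± 0.44) and Clock 28, 33, 37 and 22 (-0.08 ± 0.29), both with an edgeR adjusted p of 0.965. With standard errors of 0.29 to 0.84, small differences were not detectable at this depth. Cry2, with 8, 5, 4 and 0 UMIs, gave -1.68 ± 0.84 (edgeR adjusted p = 0.610). Groups did not overlap for 2 of the 6 tested genes, Per3 and Cry2, both lower in HET, against 39.2% of the genes tested. Free neuronal RNA was estimated at 24.0% and 24.7% of microglial UMIs in WT and at 11.3% and 17.2% in HET. After its subtraction 3 of the 5 genes tested had a positive difference, with a median of 0.10, against 2 of 6 and -0.08 before it. Of the 159 microglial nuclei of WT2, 120 lay in 1 cluster that held 0, 1 and 0 nuclei of WT1, HET1 and HET2, and its part in these values was not tested. In endothelial cells 9 of 10 could be tested and 1, Arntl, had p under 0.05 (0.98 ± 0.47, edgeR adjusted p = 0.443), against 10% of all genes (4.59% under 0.01). It was also the 1 gene of the 9 tested whose groups did not overlap, against 40.7% of the genes tested. By DESeq2 none had p under 0.05 in either class. Leaving out HET2 brought endothelial Arntl to 1.47 ± 0.54, and leaving out HET1 brought it to 0.39 ± 0.67. Dbp was at 1.10 ± 0.67 with all 4 libraries (edgeR adjusted p = 0.630). It was at 1.96 ± 0.66 without HET1, 2.51 ± 0.85 without WT2 and -1.69 ± 1.30 without HET2.

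Whether the genotype difference itself differed between classes was tested with an interaction term against excitatory neurons. Only Cry1 in oligodendrocytes passed p under 0.01, with a difference of -1.33 ± 0.44 (edgeR adjusted p = 0.193), where 4.38% of all genes did. No clock gene passed in inhibitory neurons, microglia or endothelial cells, where the shares of all genes were 1.43%, 3.41% and 4.17%.

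Other genes of the loop and its inputs were taken from lists. Of 10 further loop genes, 7 were positive in excitatory neurons with a median of 0.24. Of all genes 0.548% passed p under 0.01 there, and of these 10 genes 1 did. This was Hlf, which encodes a D-box-binding relative of DBP, at 49.1 and 57.4 CPM in WT and 74.0 and 67.0 in HET (0.48 ± 0.13, edgeR adjusted p = 0.9999). It no longer passed without WT1 (0.43 ± 0.16), HET1 (0.38 ± 0.19) or HET2 (0.57 ± 0.18), with the replicate block (0.48 ± 0.14) or with scaling by library totals alone (0.40 ± 0.13). Ciart, a repressor of CLOCK and BMAL1, had the largest difference of the list, at 4.40, 4.80, 8.87 and 5.95 CPM (0.76 ± 0.25), and Rorb, a receptor that binds the same element as the REV-ERBs, the smallest (-0.15 ± 0.20). Of 9 kinases, ligases and partners of the clock proteins none passed, and they lay between Gsk3b at 0.13 and Timeless at -0.10 with a median of 0.04.

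Of 6 rhythmic output genes none passed in excitatory neurons, with Wee1, a cell cycle kinase, at 0.14 and Tsc22d3, which glucocorticoids also induce, at -0.80 ± 0.42. Of 8 immediate early genes, induced by neuronal activity, none passed, with 3 positive, a median of -0.23, Nr4a1 at 0.40 and Fos at -0.91 ± 0.64. Of 6 glucocorticoid-responsive genes none passed there, and 1 passed over all nuclei, against 0.252% of all genes. Zbtb16 was their largest, at 112 and 159 CPM in WT and 198 and 169 in HET (0.52 ± 0.17), and passed p under 0.01 over all nuclei (0.53 ± 0.15, edgeR adjusted p = 0.9998), though not without WT1 (0.38 ± 0.13), HET1 (0.41 ± 0.20) or HET2 (0.64 ± 0.21), with scaling by library totals alone (0.46 ± 0.17) or with the study's 10% filter (0.50 ± 0.15), while Tsc22d3 was their smallest. Of 7 temperature-responsive genes none passed, with Hspa1a at 0.45 and Hspa1b at -0.68 from 6 to 14 UMIs a library. These are a pair of near-identical genes whose reads may be ambiguous between them.

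Outside the neurons, listed genes passed p under 0.01 in 5 cases. Of the further loop genes 1 of 6 tested passed in microglia and 2 of 6 in endothelial cells. Of the immediate early genes 1 of 5 passed in oligodendrocytes, and of the glucocorticoid-responsive genes 1 of 4 in endothelial cells. No gene of the other lists passed. The shares of all genes were 3.26% in oligodendrocytes, 2.99% in microglia and 4.59% in endothelial cells. Rora, the receptor that activates Arntl, was at 417 and 611 CPM in WT and 249 and 316 in HET endothelial cells (-0.87 ± 0.28, edgeR adjusted p = 0.083), and gave -0.77 ± 0.24 in microglia (edgeR adjusted p = 0.285). Neither call held with each library left out: in endothelial cells it was lost without WT2 (-0.57 ± 0.30) or HET1 (-0.68 ± 0.34), and in microglia with any of the 4 left out (-0.91 to -0.64). DESeq2 made neither call, the endothelial one was also lost with high doublet scores removed (-0.71 ± 0.27), and the microglial one with nuclei under 1% mitochondrial UMIs (-0.79 ± 0.47). Rorb was lower in HET endothelial cells, with 25 and 14 UMIs in WT and 2 and 4 in HET (-2.02 ± 0.58, edgeR adjusted p = 0.039). Its call at p under 0.01 was lost without HET1 (-1.67 ± 0.70) and by DESeq2 (-2.09 ± 0.98). The edgeR adjusted p was 0.137, 0.429 and 0.115 without WT2, HET1 and HET2, 0.096 with at least 1000 UMIs per nucleus, 0.173 with high doublet scores removed and 0.0502 with scaling by library totals alone. Both are neuronal transcripts as well, and the free neuronal RNA estimate was higher in WT. After its subtraction Rora gave -0.57 ± 0.47 in endothelial cells and -0.07 ± 1.35 in microglia, and Rorb had under 10 UMIs. Cdkn1a, a cell cycle inhibitor, was at 127 and 246 CPM in WT and 482 and 254 in HET endothelial cells (1.03 ± 0.31, edgeR adjusted p = 0.059), and was at 0.50 ± 0.35 without WT1 and 0.54 ± 0.38 without HET1. It also no longer passed by DESeq2, with the study's 10% filter (0.95 ± 0.36) or after subtraction of free neuronal RNA (0.80 ± 0.36). Junb had 2 and 14 UMIs in WT and 0 and 0 in HET oligodendrocytes (edgeR adjusted p = 0.223). It no longer passed without HET1 or HET2, by DESeq2, with the replicate block, without centring per library or at the lower clustering resolution of 0.5 (-1.93 ± 0.83), and could not be tested without WT2.

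The genes whose library pattern was most like that of Dbp and Arntl were sought over 20 values (5 classes in 4 libraries, log2 CPM with class means removed), among the 64 genes with at least 400 UMIs in each class. For Dbp they were Camk1d (r = 0.82), Xist (0.71) and Cmss1 (0.58), and for Arntl Macf1 (0.54), Srgap2 (0.41) and Ddx5 (0.27). The 20 points share 4 libraries, so these correlations describe the libraries and carry no test.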

How the data were processed

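The authors deposited raw UMI counts for every gene and called nucleus, made with Cell Ranger (version 5.0 by the study's methods) from Chromium 3′ v3.1 libraries and, per the labels, the mm10 genome, without normalization. Whether intronic reads were counted is not given in the sources used here. A nucleus was retained if its UMIs lay between 500 and 50000, over 200 genes were detected and the mitochondrial share was below 5%. Leiden clustering (resolution 1, leidenalg 0.10.2) used 3000 variable genes, and the clock and listed genes were left out of it. Clusters were named from markers by a rule set after the clusters were seen. High doublet scores were kept and were removed in an alternative.

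UMIs were summed per library and class. Genes with at least 10 UMIs over the 4 libraries were compared with edgeR 4.0.16 (TMM, quasi-likelihood test, two-sided), with Benjamini-Hochberg adjustment over all genes tested. The fits were run on simulated data with planted changes larger than those of the clock genes in excitatory neurons. That run does not show whether differences as small as those can be found. CPM levels use library totals, and fold changes the TMM fit. With 2 libraries per genotype, an exact two-sided permutation test cannot go below p = 0.333. Class totals were 44784935 to 66586008 UMIs in excitatory neurons, and intervals cover counting error only. Alternatives included DESeq2 1.42.0 and limits of 1000 UMIs and 1% mitochondrial UMIs. The members and lists were chosen with earlier results of these data known. The text names all 10 members, and list genes with p under 0.01 in a class or at either end of their list in excitatory neurons; Fkbp5, Bhlhe40 and Nr4a1 by library were chosen after their values were seen. The index in other neurons, its values after subtraction of free RNA, and the levels by neuron type were added after seeing the data.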

Additional observations from a re-analysis of the deposited data

Results flagged for a closer look

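The genotype difference of Cry1, a repressor of CLOCK and BMAL1, was positive in excitatory neurons (0.65) and negative in oligodendrocytes (-0.66): the difference of the log2 differences was -1.33 ± 0.44 (SE, edgeR adjusted p = 0.193). It was singled out because the interaction term passed p under 0.01, as it did for 4.38% of all genes. In excitatory neurons Cry1 was at 9.57 and 11.1 CPM in WT and at 19.3 and 11.2 in HET, and in oligodendrocytes at 15.8 and 17.2 CPM in WT and at 10.0 and 9.47 in HET, from 10, 39, 10 and 6 UMIs. Both HET libraries were above WT in the first class, though HET2 (11.2) lay close to WT2 (11.1), and below WT in the second. Groups did not overlap for 27.2% of all genes in excitatory neurons and for 34.6% in oligodendrocytes. Without HET1 the term was -0.94 ± 0.67 and with nuclei under 1% mitochondrial UMIs it was -2.23 ± 0.53. Without WT2 it was -1.38 ± 0.67. By DESeq2 (-1.34 ± 0.64) the term no longer passed, and it passed under the other settings with all 4 libraries in which it was tested. It was not tested with the replicate block or after subtraction of free neuronal RNA. The study's 10% filter left Cry1 untested in oligodendrocytes.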

How the results depend on the processing

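Results are counts of clock genes with p under 0.01, and the index by its spread between the highest and the lowest library. A fit with 1 library left out has 1 library in a group, so a pass there rests on 1 animal in that group. No clock gene passed in any class except when 1 library was left out, which gave 0 to 2 genes over all nuclei and in excitatory neurons and 0 to 1 in endothelial cells. Of 831 alternative values of the 55 tested gene and class pairs, 54 changed sign and 8 passed, and 24 pairs kept their sign throughout. The interaction count of 1 was 0 with the study's 10% filter and by DESeq2, 2 without a filter and 2 with high doublet scores removed, and 0 to 5 with 1 library left out (0 without WT2, 5 without HET2). The index spread of 0.67 in excitatory neurons was 0.25 in other neurons and 1.70 in endothelial cells, and after subtraction of free RNA 1.34 in oligodendrocytes and 2.19 in endothelial cells, where few UMIs limit it. The causes were not tested. The labels do not say that replicate numbers pair the samples, and whether they do cannot be told: deviations of same-numbered libraries correlated at 0.016 in excitatory neurons, -0.066 in oligodendrocytes and 0.13 in endothelial cells. With the replicate block, 0 clock genes passed in each class. Scaling by library totals alone moved the median of all genes to -0.06 in excitatory neurons and -0.10 in oligodendrocytes. It left 10 of 10 and 2 of 10 clock genes positive, none with p under 0.05. Under 1% mitochondrial UMIs no endothelial nuclei remained in WT2, and that fit was not run.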

Other observations

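Over neurons alone (12 values, 3 classes in 4 libraries, 8889 genes with at least 400 UMIs in each class), the genes most like Dbp were Fubp1 (r = 0.95) and 1700016K05Rik (0.94), and those most like Arntl were Med13l (0.97) and Oxsr1 (0.96). This choice of classes was made after seeing the data. None of these 4 is a clock gene of the lists, the points share 4 libraries, and with 8889 genes and few independent libraries high values are common, so the correlations are given with no test.

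Tsc22d3, which glucocorticoids induce, was at 47.8 and 164 CPM in WT1 and WT2 and at 85.5 and 124 in HET1 and HET2 in endothelial cells, with WT2 and HET2 above the other libraries as for Dbp and Nr1d1 there. Tsc22d3 was chosen after its values were seen. Cdkn1a, another of the listed glucocorticoid-responsive genes, did not share this order and was highest in HET1 in these cells.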
